A study of Mus musculus with 12 samples.

Results

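The genes described here are 47 enzymes of central carbon metabolism in 3 branches: 19 of glycolysis, 7 of the pentose phosphate pathway and 21 that bring pyruvate into the mitochondrion or run the tricarboxylic acid (TCA) cycle. They were taken by gene symbol from the annotation of the array. A gene counted as measured where 3 or more of the 12 arrays detected a probe of it (detection p-value under 0.05). Of the 47 genes, 41 had a named probe and 39 were measured, out of 9879 genes measured in all: 16 of glycolysis, 4 of the pentose phosphate pathway and 19 of the pyruvate and TCA branch. Gpi1, Eno1, Ldhb, G6pdx, Pgd and Rpe had no probe named here and were not analysed. Sucla2 was detected on 0 arrays and Pcx on 2, so both fell below the detection filter.

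The cells came from CCE, a wild-type mouse embryonic stem cell line of strain 129/Sv. They were grown as embryoid bodies for 4 days, sorted for Flk1 (the VEGF receptor of vascular progenitors), and plated on collagen IV for 4 days more. The plated cells were kept at 21% oxygen, called normoxia, or at 1.5 to 2%, called hypoxia. Some cultures of each received L-685.458 at 4 µmol/l. This compound inhibits gamma-secretase, the protease that releases the active part of Notch receptors. RNA was taken from over 50000 cells sorted for CD31 (Pecam1), an endothelial surface protein, per sample. The 4 groups are normoxia, normoxia with inhibitor, hypoxia, and hypoxia with inhibitor, each with 3 arrays called biological replicates in the series record and numbered 1 to 3. All groups derive from 1 stem cell line, so the replicates do not show the spread between genotypes. Whether the 3 replicates of a group came from separate differentiations is not stated.

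Glycolysis splits glucose into pyruvate in the cytosol, and lactate dehydrogenase regenerates the NAD+ that keeps it running when pyruvate is not oxidised. The pentose phosphate pathway branches off after the hexokinase step and yields NADPH and ribose phosphate, while pyruvate dehydrogenase feeds acetyl-CoA into the TCA cycle, whose reduced cofactors are oxidised with oxygen in the respiratory chain. In low oxygen the hypoxia-inducible factors (HIF) are stabilised and bind short DNA elements with the core ACGTG or GCGTG, and many glycolysis genes are known HIF targets. Endothelial cells are known to rely strongly on glycolysis even in normal oxygen.

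Promoter sequence is shown for 5 glycolysis genes because the results turn on them: the 3 phosphofructokinase genes, whose changes differed most between isozymes, and Ldha and Tpi1, which both rose and whose windows hold the most and the fewest HIF cores of the 5. Each window runs from 250 bases before to 50 after an annotated RefSeq start (build GRCm38.p6), 5′ to 3′ on the gene's strand. For Pfkm and Ldha, which have several starts, the first window in the table is printed. Capitals mark ACGTG or GCGTG on either strand. A CACGTG matches ACGTG on both strands and counts as 2 matches that overlap.
Pfkl, chr10:78009758-78010057, minus strand: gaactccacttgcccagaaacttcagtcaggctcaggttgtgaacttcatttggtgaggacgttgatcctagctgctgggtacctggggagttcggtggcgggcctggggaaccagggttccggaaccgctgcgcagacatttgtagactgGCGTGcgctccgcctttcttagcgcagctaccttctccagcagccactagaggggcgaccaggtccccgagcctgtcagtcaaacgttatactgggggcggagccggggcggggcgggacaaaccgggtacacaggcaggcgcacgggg
Pfkp, chr13:6648722-6649021, minus strand: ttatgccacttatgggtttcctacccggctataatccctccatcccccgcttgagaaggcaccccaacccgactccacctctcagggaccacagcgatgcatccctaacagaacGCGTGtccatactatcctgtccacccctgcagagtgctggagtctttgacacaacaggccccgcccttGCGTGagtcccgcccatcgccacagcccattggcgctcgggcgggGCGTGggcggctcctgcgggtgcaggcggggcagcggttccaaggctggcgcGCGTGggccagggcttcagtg
Pfkm, chr15:98092339-98092638, plus strand: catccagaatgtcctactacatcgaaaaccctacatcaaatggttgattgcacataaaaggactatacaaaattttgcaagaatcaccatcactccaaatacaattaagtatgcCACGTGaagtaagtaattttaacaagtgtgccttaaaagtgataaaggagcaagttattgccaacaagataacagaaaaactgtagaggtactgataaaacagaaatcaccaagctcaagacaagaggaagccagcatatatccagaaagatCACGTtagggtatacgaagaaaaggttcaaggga
Ldha, chr7:46845554-46845853, plus strand: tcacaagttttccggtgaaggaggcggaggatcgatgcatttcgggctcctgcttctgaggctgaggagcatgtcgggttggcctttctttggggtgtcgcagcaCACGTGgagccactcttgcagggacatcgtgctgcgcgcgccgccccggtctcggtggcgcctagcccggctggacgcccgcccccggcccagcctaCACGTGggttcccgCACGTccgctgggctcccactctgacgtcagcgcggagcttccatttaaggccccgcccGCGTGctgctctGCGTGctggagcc
Tpi1, chr6:124814109-124814408, minus strand: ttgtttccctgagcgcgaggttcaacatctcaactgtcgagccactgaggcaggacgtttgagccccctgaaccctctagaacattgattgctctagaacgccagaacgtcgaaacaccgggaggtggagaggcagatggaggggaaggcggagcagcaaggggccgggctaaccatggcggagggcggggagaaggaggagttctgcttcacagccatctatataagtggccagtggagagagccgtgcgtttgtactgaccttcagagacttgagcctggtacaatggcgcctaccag
The Ldha window held 7 matches, Pfkp 4, Pfkm 3, Pfkl 1 and Tpi1 0. Of the 47 genes, 45 were searched in a promoter window. A core was found in at least 1 window of 16 of 19 glycolysis genes and 6 of 7 pentose phosphate genes. In the pyruvate and TCA branch a core was found for 12 of 19 genes. Me2, called higher in hypoxia below, was not among the 45, so whether its promoter holds a core was not tested. Over all 27025 genes with windows of this length, 46.7% had a core. Among the measured glycolysis genes, 9 of the 10 called higher in hypoxia below and 5 of the 6 not called had one. The match describes these letters in these windows only.

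The arrays detected 13085 to 13901 of 25697 probes each. Endothelial markers were bright, with log2 signals of Pecam1 from 11.75 to 12.57 and of Cdh5 (VE-cadherin) from 10.12 to 11.05 over the 12 arrays, and 15 of 15 named endothelial markers were measured. Kdr, which encodes Flk1, was dim, at 5.27 to 6.21. Markers of pluripotent cells were present too: 16 of 17 named ones were measured, Pou5f1 (Oct4) at 6.35 to 10.07, and their summed linear signal was 13350 to 27070 in normoxia, 5506 to 23540 in normoxia with inhibitor, 11780 to 13290 in hypoxia and 4922 to 10190 in hypoxia with inhibitor. Mural and smooth muscle markers were bright as well: 8 of 11 named ones were measured, with a summed signal of 46800 to 70300 over the 12 arrays. Cnn1, Myh11 and Rgs5 of that list fell below the detection filter. The endothelial sum was 64620 to 103500. Sums are not comparable between lists, since each holds different probes. In such sorted bulk samples, fewer cells of a type and less RNA per cell cannot be told apart.

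Arrays numbered 3 stood apart from those numbered 1 and 2. Set against the other numbers with group held fixed (limma, adjusted p under 0.05), 20.5% of all genes differed, and of 16 pluripotency markers 11 were lower and 2 higher. Of 13 haematopoietic and erythroid markers 6 were lower and 1 higher. Of the 16 glycolysis genes, 7 were lower in the arrays numbered 3 (Hk1, Hk2, Pfkm, Pfkfb4, Aldoa, Aldoc and Pkm, by 0.35 to 0.77 on the log2 scale) and 0 were higher. Of the pentose phosphate genes 0 differed, and in the pyruvate and TCA branch Ogdh and Mdh1 were lower and Mdh2 higher. This comparison included hypoxia with inhibitor 3 and was not run without it. Not every gene was lower in every group: Aldoc was at 6.62 in hypoxia 3, against 6.51 and 6.48 in hypoxia 1 and 2. A single library, hypoxia with inhibitor 3, lay lower still: 15 of 16 glycolysis genes had less signal there than on both other arrays of its group, against 43% of all genes. So had 4 of 4 pentose phosphate genes and 9 of 19 of the pyruvate and TCA branch. Its marker content differed too. Its summed endothelial signal, 64620, was the lowest of any array, while the other arrays numbered 3 had 94390 to 103500. Its summed fibroblast and mesenchyme signal, 3923, was the highest, against 1623 to 2928 elsewhere. The part of these differences in its low glycolysis signal was not tested. Results that rest on this library are therefore given with and without it. Since it was singled out by its low glycolysis signal, larger hypoxia changes and smaller inhibitor differences without it follow in part from that choice.

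Glycolysis was the branch that moved with oxygen. Averaged over inhibitor status, 10 of its 16 measured genes rose in hypoxia, 0 fell, and the median change over the branch was 0.66 log2 units. Of the 4 pentose phosphate genes 0 changed, with a median of -0.12. Of the 19 genes of the pyruvate and TCA branch 1 rose (Me2) and 0 fell, with a median of -0.11. Calls are limma adjusted p-values under 0.05 (Benjamini-Hochberg over all probes). The background in this comparison was 3.08% of genes called higher and 2.67% called lower (5.75% in either direction), with a median of -0.01 over all 9879 genes. With hypoxia with inhibitor 3 left out, 11 of 16 glycolysis genes were called higher (Hk1 in addition), while over all genes 4.38% were called higher and 3.54% lower. The branch medians were then 0.72, -0.07 and -0.11.

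**Figure D1:**
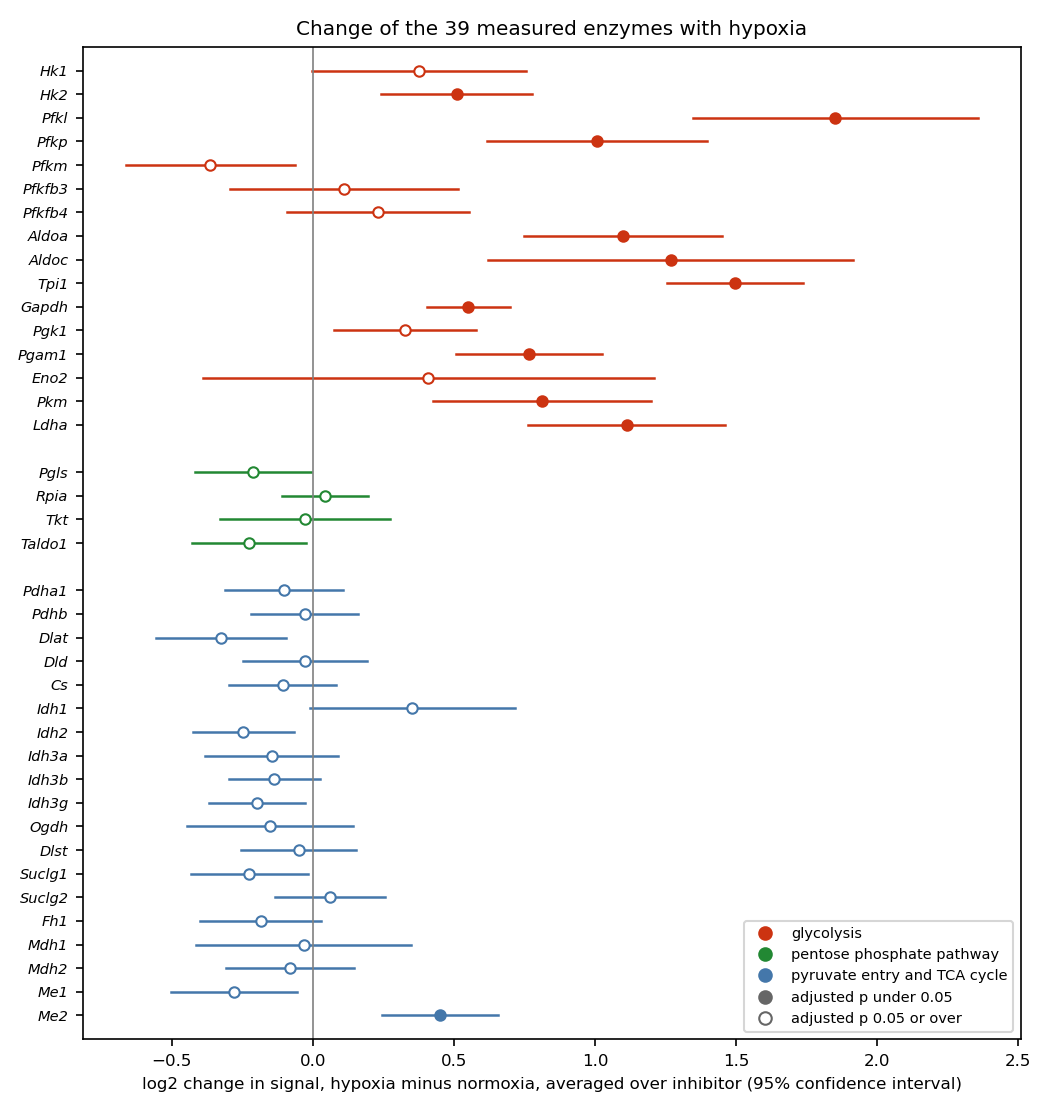
Change in log2 signal of each measured enzyme, hypoxia minus normoxia averaged over inhibitor status, with 95% confidence intervals from limma over 12 arrays. Filled points passed the adjusted p threshold of 0.05: 10 glycolysis genes and Me2. Pfkm is the 1 glycolysis gene of 16 left of zero.

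The same order showed array by array. For each array the median over a branch was taken of each gene's log2 signal minus that gene's mean over 12 arrays. For glycolysis it was -0.32, -0.25 and -0.50 in normoxia, -0.32, -0.23 and -0.41 in normoxia with inhibitor, 0.66, 0.49 and 0.36 in hypoxia, and 0.44, 0.38 and -0.31 in hypoxia with inhibitor. The 5 hypoxic arrays other than hypoxia with inhibitor 3 all lay above the 6 normoxic ones. For the pentose phosphate genes the 12 values ran from -0.27 to 0.21 and the groups overlapped, with the lowest value on hypoxia with inhibitor 3 and the highest on normoxia 3. In the pyruvate and TCA branch they ran from 0.03 to 0.08 on the normoxic arrays and from -0.09 to 0.02 on the hypoxic ones. The sets met almost without a gap, at 0.03 on normoxia 1 and 0.02 on hypoxia with inhibitor 2.

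**Figure D2:**
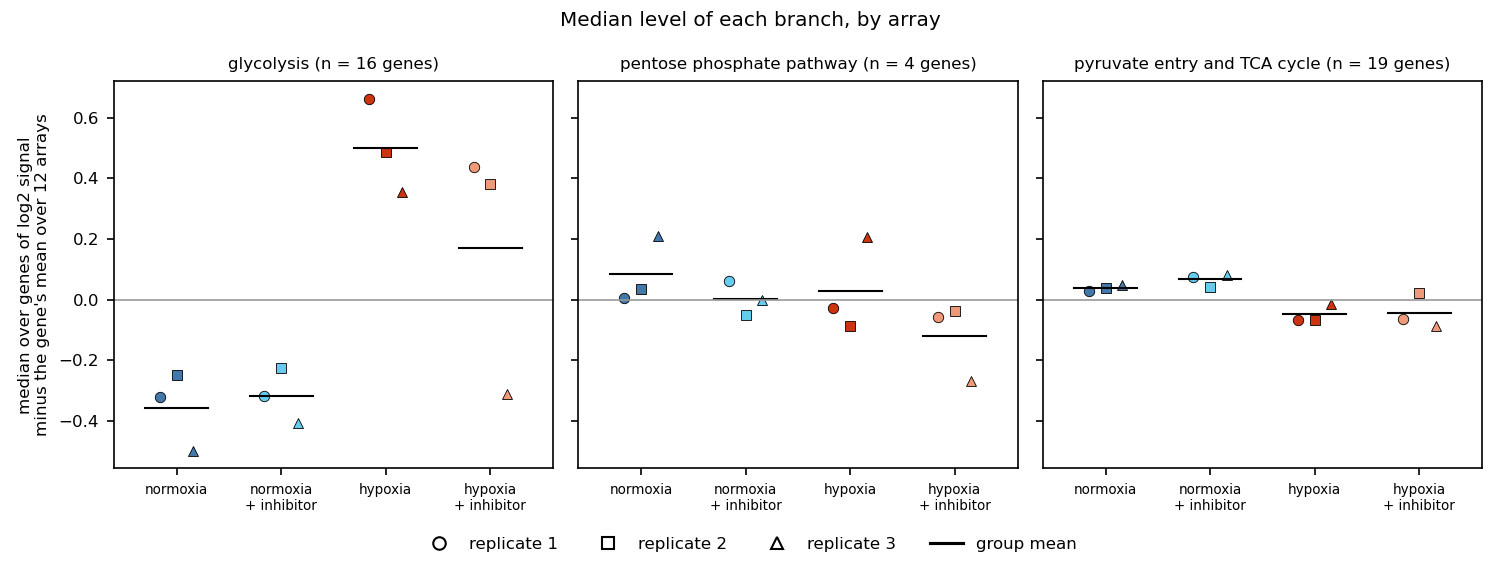
Median over the genes of each branch of log2 signal minus the gene's mean over 12 arrays, 1 point per array, bars at the mean of 3 arrays. In glycolysis hypoxia with inhibitor 3, at -0.31, lies among the normoxic arrays.

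Pluripotency markers had a median change of -0.62 between the same groups, with 0 of 16 called. Their summed signal in normoxia 3 and hypoxia 3 was nearly the same, 13350 and 12760, and between this pair 14 of 16 glycolysis genes were higher in hypoxia, with a median difference of 0.78. In the pairs numbered 1 and 2 without inhibitor, where the sums were 27070 against 11780 and 27060 against 13290, the median differences were 0.99 and 0.73. With the inhibitor, the pairs numbered 1, 2 and 3 had sums of 23540 against 10190, 23180 against 9876 and 5506 against 4922. There 13, 14 and 12 of 16 glycolysis genes were higher in hypoxia, with median differences of 0.64, 0.58 and 0.34. Each of these is 1 array against 1, and the part of the pluripotent cells in the glycolysis change was not tested. Cardiac and skeletal muscle markers, dim throughout (summed signal 406 to 897 in the normoxic arrays and 819 to 1411 in the hypoxic ones), had a median change of 0.23 with 1 of 5 called, and their part in the glycolysis change was not tested. Of 13 haematopoietic and erythroid markers measured 1 was called higher and 4 lower, and of 15 endothelial ones 1 was higher. Of 8 mural and smooth muscle markers 1 was called higher, as was 1 of 8 fibroblast and mesenchyme ones, and 0 of either were lower. Of 4 endoderm markers 0 were called. Over all genes 3.08% were called higher and 2.67% lower. The part of these lists in the glycolysis change was not tested either.

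At the entry to glycolysis, hexokinases phosphorylate glucose and trap it in the cell. Hk2, the inducible form, had log2 signals of 11.85, 11.84 and 11.58 in normoxia, 12.11, 11.87 and 11.68 in normoxia with inhibitor, 12.50, 12.47 and 12.04 in hypoxia, and 12.54, 12.37 and 12.07 in hypoxia with inhibitor. Within each number hypoxia was higher, in 6 of 6 pairs, although the arrays numbered 3 were low in all groups and so the groups overlapped. The change was 0.51 (1.42-fold, 95% confidence interval 0.24 to 0.78, limma adjusted p = 0.034). That call was lost when any 1 of 9 arrays was left out, the highest adjusted p being 0.093 without hypoxia 2; leaving out normoxia with inhibitor 1, hypoxia 3 or hypoxia with inhibitor 3 kept it. Hk1, the widespread form, changed by 0.38 (adjusted p = 0.26), and without hypoxia with inhibitor 3 by 0.54 (adjusted p = 0.016).

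Phosphofructokinase, which commits sugar phosphate to glycolysis, is encoded by 3 genes whose products assemble into tetramers, and these genes did not move together. Pfkl, the liver-type subunit, had signals of 10, 10.01 and 9.90 in normoxia, 10.11, 9.88 and 9.68 in normoxia with inhibitor, 12.06, 12.05 and 12.03 in hypoxia, and 11.99, 12.08 and 10.48 in hypoxia with inhibitor. All 6 hypoxic arrays lay above all 6 normoxic ones, and the 3 of hypoxia alone were nearly equal. The change was 1.85 (1.35 to 2.36, adjusted p = 0.00118), a 3.61-fold rise and the largest of the 39 genes. A second, dimmer Pfkl probe changed by 0.45 (adjusted p = 0.22), so the size for this gene depends on the probe.

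Pfkp, the platelet-type subunit, had signals of 9.62, 9.47 and 9.27 in normoxia, 9.46, 9.27 and 9.40 in normoxia with inhibitor, 10.84, 10.58 and 10.56 in hypoxia, and 10.70, 10.39 and 9.46 in hypoxia with inhibitor. Here too 5 hypoxic arrays were high, and hypoxia with inhibitor 3 fell within the normoxic range. The change was 1.01 (2.01-fold, 0.62 to 1.4, adjusted p = 0.00792), and a second Pfkp probe gave 0.80 (adjusted p = 0.00392).

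Pfkm, the muscle-type subunit, went the other way, with signals of 9.89, 9.91 and 9.34 in normoxia, 9.93, 9.84 and 9.54 in normoxia with inhibitor, 9.55, 9.24 and 9.40 in hypoxia, and 9.51, 9.56 and 9.01 in hypoxia with inhibitor. Most hypoxic arrays lay below most normoxic ones, with overlap through the arrays numbered 3. Its change of -0.36 (-0.66 to -0.06) did not pass the test (adjusted p = 0.16). It passed with the replicate number as a block (adjusted p = 0.048; with this block 9.48% of all genes were called, 4.86% higher and 4.63% lower) and over the arrays numbered 1 and 2 alone (-0.43, adjusted p = 0.011). Over the arrays numbered 1 and 2, 997 of 9561 genes were called higher and 1085 lower. All 3 Pfkm probes had negative changes, of -0.52, -0.18 and -0.36.

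The isozymes were set against each other directly, as the change in the first gene's log2 signal minus that of the second, with an exact two-sided permutation test of array labels within inhibitor status (400 permutations, smallest possible p 0.005). Of 13 pairs 10 had both genes measured, and p-values were adjusted over these 10. Pfkl rose more than Pfkm by 2.21 (95% confidence interval 1.77 to 2.66), Pfkp more than Pfkm by 1.37 (1.05 to 1.69) and Pfkl more than Pfkp by 0.85 (0.55 to 1.14). Each had the smallest exact permutation p possible, 0.005 (adjusted p = 0.0125), and ran in the same direction in 6 of 6 pairs of arrays. With the mean of all probes of a gene, the Pfkl to Pfkp difference shrank to 0.25 (exact permutation test, adjusted p = 0.14), while both differences from Pfkm kept their adjusted p under 0.05. Hk2 and Hk1 differed by 0.13 (-0.13 to 0.39, exact permutation adjusted p = 0.54) and Aldoa and Aldoc by -0.17 (-0.66 to 0.32, exact permutation adjusted p = 0.54), so for these pairs a difference was not shown.

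**Figure D3:**
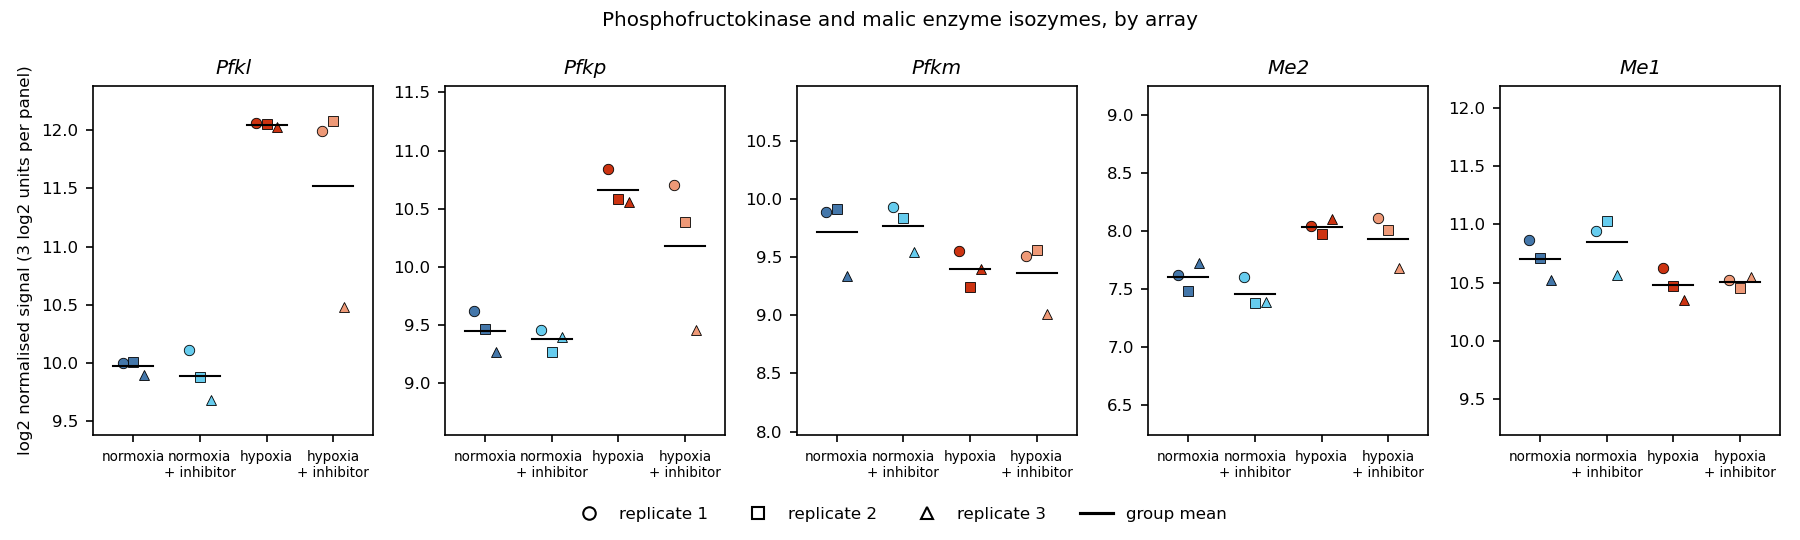
Log2 signal by array of the phosphofructokinase genes and of the malic enzyme genes, every panel spanning 3 log2 units. Bars are means of 3 arrays. Pfkl, Pfkp and Me2 are higher and Pfkm and Me1 lower in the hypoxia groups' means. Levels are not comparable between panels, since each panel is a different probe.

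Pfkfb3 and Pfkfb4 make fructose 2,6-bisphosphate, the strongest activator of phosphofructokinase. Pfkfb4 changed by 0.23 (adjusted p = 0.43). Over the arrays numbered 1 and 2 its change was 0.41 (adjusted p = 0.00346). In that fit 2082 of 9561 genes were called. Pfkfb3 was near the detection limit (detected on 6 of 12 arrays, signals of 4.59 to 5.81) and changed by 0.11 (adjusted p = 0.81), which at this brightness says little about it.

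Aldolase splits the sugar into triose phosphates, and triosephosphate isomerase converts these into each other. Aldoa, the main aldolase, had signals of 12, 11.93 and 11.66 in normoxia, 11.91, 11.94 and 11.62 in normoxia with inhibitor, 13.16, 13.21 and 12.82 in hypoxia, and 13.13, 13.13 and 12.23 in hypoxia with inhibitor. The hypoxic and normoxic arrays did not overlap, and the change was 1.1 (2.14-fold, 0.75 to 1.45, adjusted p = 0.00277). Aldoc, the brain-type aldolase, was dim, at 5.25, 5.14 and 4.65 in normoxia, 5.26, 5.81 and 4.59 in normoxia with inhibitor, 6.51, 6.48 and 6.62 in hypoxia, and 6.67, 6.92 and 5.11 in hypoxia with inhibitor. It was detected on 4 of 6 normoxic and 5 of 6 hypoxic arrays, and hypoxia with inhibitor 3 lay among the normoxic ones. Its change of 1.27 (2.41-fold, 0.62 to 1.91, adjusted p = 0.030) lost its call when any 1 of 9 arrays was left out (highest adjusted p 0.072, without hypoxia with inhibitor 1). Leaving out normoxia with inhibitor 2 or 3, or hypoxia with inhibitor 3, kept it.

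Tpi1, the triosephosphate isomerase, had signals of 13.35, 13.32 and 13.33 in normoxia, 13.28, 13.42 and 13.27 in normoxia with inhibitor, 14.97, 15.01 and 14.97 in hypoxia, and 14.93, 14.83 and 14.24 in hypoxia with inhibitor. Every hypoxic array lay well above every normoxic one, hypoxia with inhibitor 3 included, and its adjusted p was the smallest of the 39 genes. The change was 1.50 (2.82-fold, 1.25 to 1.74, adjusted p = 5.23e-05), and its 2 other probes gave 1.64 and 1.08. This is also the gene of the 10 whose single promoter window held 0 HIF cores.

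In the later steps of the pathway, Gapdh oxidises glyceraldehyde phosphate and is often used as a reference gene. Its signals were 14.97, 15.04 and 14.97 in normoxia, 15.06, 15.09 and 15.04 in normoxia with inhibitor, 15.62, 15.62 and 15.66 in hypoxia, and 15.59, 15.57 and 15.41 in hypoxia with inhibitor. The groups did not overlap across oxygen, and the change of 0.55 (0.40 to 0.70, adjusted p = 0.0011) is a 1.46-fold rise; a second probe gave 0.71 (adjusted p = 0.000386). Pgam1, the phosphoglycerate mutase, had signals of 9.09, 9.19 and 9.11 in normoxia, 9.27, 9.50 and 9.19 in normoxia with inhibitor, 10.27, 10.06 and 9.93 in hypoxia, and 10.02, 10.16 and 9.51 in hypoxia with inhibitor. It too separated, though hypoxia with inhibitor 3 was barely above normoxia with inhibitor 2, and it changed by 0.77 (1.7-fold, 0.51 to 1.02, adjusted p = 0.00393).

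Pgk1, the phosphoglycerate kinase and a textbook HIF target, was measured by a probe near the detection limit (7 of 12 arrays, signals of 4.84 to 5.97), and its change of 0.33 did not pass the test (adjusted p = 0.14). Eno2, the neuronal enolase, had signals of 5.47 to 6.38 on 11 arrays and 8.45 on hypoxia with inhibitor 3. Its change of 0.41 (adjusted p = 0.60) rested on that library and was 0.01 without it.

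Pkm and Ldha make pyruvate and lactate. Pkm, the pyruvate kinase, had signals of 12.67, 12.79 and 12.51 in normoxia, 12.72, 12.75 and 12.20 in normoxia with inhibitor, 13.68, 13.61 and 13.47 in hypoxia, and 13.61, 13.58 and 12.57 in hypoxia with inhibitor. Except for hypoxia with inhibitor 3 the hypoxic arrays were all higher than the normoxic ones. The change was 0.81 (1.76-fold, 0.43 to 1.2, adjusted p = 0.023). Leaving out normoxia 1, hypoxia 1, hypoxia 2, hypoxia with inhibitor 1 or hypoxia with inhibitor 2 brought the adjusted p to between 0.053 and 0.060.

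Ldha, the lactate dehydrogenase subunit favoured in anaerobic tissue, had signals of 12.60, 12.63 and 13.06 in normoxia, 12.69, 12.69 and 12.90 in normoxia with inhibitor, 14.03, 14.04 and 14.09 in hypoxia, and 14.01, 14.01 and 13.06 in hypoxia with inhibitor. Of the hypoxic arrays 5 lay far above the normoxic ones, and hypoxia with inhibitor 3 was level with normoxia 3. The change was 1.11 (2.16-fold, 0.76 to 1.46, adjusted p = 0.00254).

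**Figure D4:**
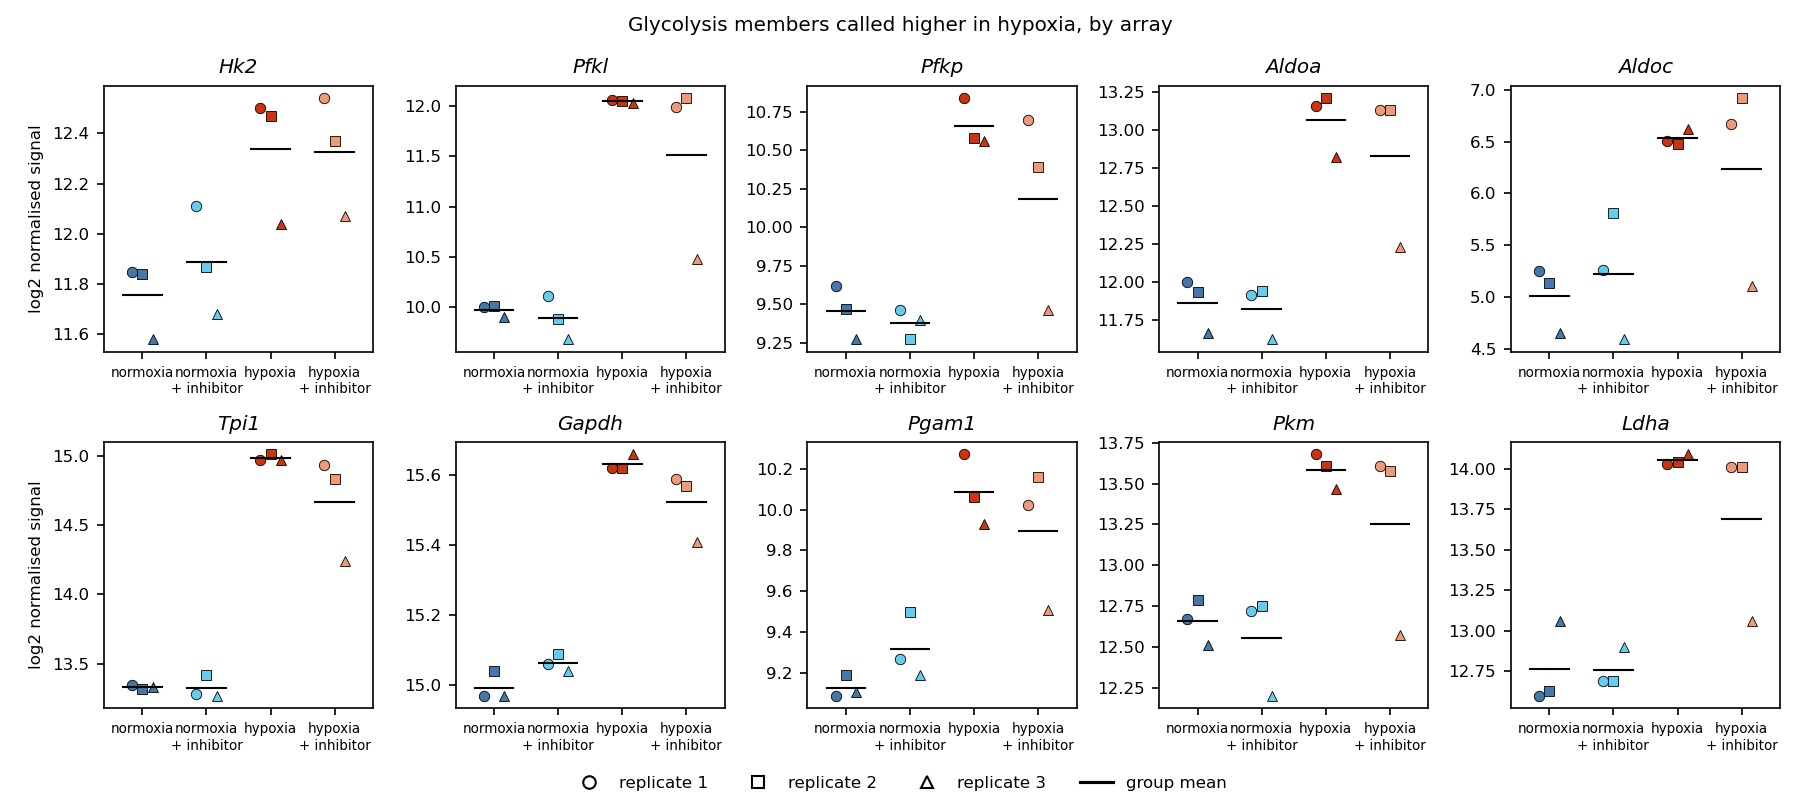
Log2 normalised signal by array of the 10 glycolysis genes called higher in hypoxia, bars at the mean of 3 arrays, each panel on its own scale. The third array of hypoxia with inhibitor (triangle) is the lowest of its group in all 10 panels.

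On hypoxia with inhibitor 3, 4 of these 10 genes (Hk2, Pfkp, Aldoc and Pkm) had signals within the range of the 6 normoxic arrays and 6 lay above it. Of all 9879 genes, 4730 lay within that range on this array, 2492 above it and 2657 below. The 10 genes had been called higher in a fit that included this array. The median distance of the 10 from the mean of the other arrays of the group was -0.92. Calls for Pfkl, Pfkp, Aldoa, Tpi1, Gapdh, Pgam1 and Ldha held in all 22 alternative settings and left-out arrays.

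The 4 measured pentose phosphate genes showed no change that passed the test. Taldo1, a transaldolase of the non-oxidative arm, had signals of 11.96, 12.03 and 12.20 in normoxia, 11.97, 11.87 and 11.92 in normoxia with inhibitor, 11.86, 11.61 and 12.11 in hypoxia, and 11.66, 11.73 and 11.63 in hypoxia with inhibitor. It was lower in hypoxia in 6 of 6 numbered pairs, with groups that overlapped, and changed by -0.23 (-0.43 to -0.02, adjusted p = 0.20). Pgls, the lactonase of the oxidative arm, had signals of 11.12, 11.21 and 11.44 in normoxia, 11.13, 11.48 and 11.28 in normoxia with inhibitor, 11.10, 11.08 and 11.36 in hypoxia, and 11, 10.98 and 10.89 in hypoxia with inhibitor. The hypoxic values were lower within each of 6 pairs and overlapped the normoxic ones, with a change of -0.21 (-0.42 to -0.01, adjusted p = 0.24).

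Rpia, which interconverts ribose and ribulose phosphates, was flat, at 6.97, 6.97 and 6.93 in normoxia, 6.97, 6.84 and 6.82 in normoxia with inhibitor, 6.90, 6.86 and 7.01 in hypoxia, and 7.06, 7.01 and 6.93 in hypoxia with inhibitor. Its change of 0.04 had an interval of -0.11 to 0.20. Tkt, the transketolase that links this pathway to glycolysis, changed by -0.03 (-0.33 to 0.27), with 11.42 to 11.75 on 11 arrays and 10.81 on hypoxia with inhibitor 3. Without that library its change was 0.11 (adjusted p = 0.46). The rate-limiting dehydrogenase gene G6pdx is among those not analysed.

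In the pyruvate and TCA branch 16 of 19 changes were negative, and each of these fell short of the test. Of all 9879 genes 4687 had a positive change in this comparison. Among the pyruvate dehydrogenase subunits, which convert pyruvate to acetyl-CoA, Dlat (the acetyltransferase core) had signals of 6.57, 6.64 and 6.42 in normoxia, 6.55, 6.45 and 6.77 in normoxia with inhibitor, 6.27, 5.98 and 6.08 in hypoxia, and 6.08, 6.51 and 6.52 in hypoxia with inhibitor. The groups overlapped, but hypoxia and normoxia without inhibitor did not. The change was -0.33 (-0.56 to -0.10, adjusted p = 0.11), the most negative of the branch. The other subunits stayed close to zero, with -0.10 for Pdha1, -0.03 for Pdhb and -0.03 for Dld.

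Citrate synthase (Cs) changed by -0.11. The TCA-cycle NAD-linked isocitrate dehydrogenase subunits Idh3a, Idh3b and Idh3g changed by -0.15, -0.14 and -0.20. Idh2, the mitochondrial NADP-linked form, changed by -0.25 (adjusted p = 0.11); without hypoxia with inhibitor 3 its change was -0.30 and passed (adjusted p = 0.025).

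Idh1, the cytosolic NADP-linked form, went the other way, with signals of 9.21, 9.11 and 9.75 in normoxia, 9.34, 9.17 and 9.81 in normoxia with inhibitor, 9.78, 9.67 and 10.17 in hypoxia, and 9.84, 9.82 and 9.23 in hypoxia with inhibitor. It was higher in hypoxia in 5 of 6 numbered pairs, the exception being hypoxia with inhibitor 3, and its arrays numbered 3 were the highest of the other 3 groups. The change of 0.35 (-0.01 to 0.72, adjusted p = 0.27) passed over the arrays numbered 1 and 2 alone (0.57, adjusted p = 0.00183). In that fit 2082 of 9561 genes were called, and in this branch 2 of 19 were higher and 2 lower. Idh2 minus Idh1 differed by -0.60 (-1.09 to -0.11, exact permutation p = 0.03, adjusted p = 0.06).

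Further round the cycle the 2-oxoglutarate dehydrogenase genes Ogdh and Dlst changed by -0.15 and -0.05. The succinyl-CoA ligase genes Suclg1 and Suclg2 changed by -0.23 and 0.06, the fumarase gene Fh1 by -0.18, and the malate dehydrogenase genes Mdh1 and Mdh2 by -0.03 and -0.08. Adjusted p-values for these 7 genes were from 0.22 to 0.95. Mdh2 against Mdh1 differed by -0.05 (-0.70 to 0.60), a wide interval, as the arrays numbered 3 were high for Mdh2 and low for Mdh1.

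Malic enzymes turn malate into pyruvate, Me1 in the cytosol and Me2 in the mitochondrion, and this was the other family whose members diverged. Me2 had signals of 7.62, 7.48 and 7.72 in normoxia, 7.60, 7.38 and 7.39 in normoxia with inhibitor, 8.04, 7.97 and 8.10 in hypoxia, and 8.11, 8.01 and 7.68 in hypoxia with inhibitor. Except for hypoxia with inhibitor 3, all hypoxic arrays lay above all normoxic ones, and the change was 0.45 (1.37-fold, 0.25 to 0.66, adjusted p = 0.019). Without normoxia 2 or normoxia with inhibitor 2 the adjusted p was 0.054 and 0.052.

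Me1 had signals of 10.87, 10.71 and 10.52 in normoxia, 10.94, 11.03 and 10.57 in normoxia with inhibitor, 10.63, 10.47 and 10.35 in hypoxia, and 10.52, 10.45 and 10.55 in hypoxia with inhibitor. It was lower in hypoxia in 6 of 6 numbered pairs, and its change was -0.28 (-0.50 to -0.06, adjusted p = 0.15). It passed when normoxia with inhibitor 3 was left out (-0.35, adjusted p = 0.049) and over the arrays numbered 1 and 2 (-0.37, adjusted p = 0.013). Over all genes 684 of 9821 were called in the former fit and 2082 of 9561 in the latter. The difference of Me2 from Me1 was 0.73 (0.42 to 1.05, exact permutation p = 0.005, adjusted p = 0.0125), in the same direction in 6 of 6 pairs.

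Without the inhibitor alone, 3 arrays against 3, hypoxia raised 7 of the 16 glycolysis genes and 0 of the other 23: Pfkl by 2.08, Tpi1 by 1.65, Ldha by 1.29, Pfkp by 1.21, Aldoa by 1.2, Pgam1 by 0.96 and Gapdh by 0.64 (limma adjusted p from 0.000699 to 0.048). The background was 0.688% of genes called higher and 0.466% lower, 1.15% in either direction. The branch medians were 0.79 for glycolysis, -0.06 for the pentose phosphate genes and -0.12 for the pyruvate and TCA branch. With the replicate number as a block, Hk2, Aldoc and Pkm passed too (10 of 16, background 1.48% higher, 1% lower and 2.48% in either direction). The count depended on single arrays: it was 1 (Tpi1) without normoxia 1, normoxia 2, hypoxia 1 or hypoxia 2, and 4 without normoxia 3. Calls over all genes fell too, from 114 to between 20 and 28 in the former fits and to 72 in the latter. The changes of Pfkl stayed within 2.04 to 2.10 and those of Gapdh within 0.63 to 0.66 with any 1 array left out.

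With the inhibitor present, hypoxia raised 2 of 16 glycolysis genes, Tpi1 by 1.35 (adjusted p = 0.00322) and Pfkl by 1.63 (adjusted p = 0.046), and 0 of the other 23 (background 0.536% called higher, 0.506% lower and 1.04% in either direction). Medians were 0.64, -0.20 and -0.16. Without hypoxia with inhibitor 3 the count was 10 members: Pfkl (2.15), Aldoc (1.57), Tpi1 (1.56), Aldoa (1.30), Ldha (1.25), Pfkp (1.17), Pkm (1.04), Pgam1 (0.77), Me2 (0.60) and Gapdh (0.53). Over all genes 1.37% were then called higher and 0.662% lower. The library had been singled out by its low glycolysis signal, so this larger count follows in part from that choice. Without any 1 of the other 11 arrays the count was 1 (Tpi1), and the Pfkl call was lost in 16 of 23 alternatives (adjusted p up to 0.22). Calls over all genes fell too in those 11 fits, to between 28 and 99, against 103 with every array. With the replicate block 4 passed, Aldoa and Gapdh in addition (background 1.08% higher, 0.941% lower and 2.02% in either direction).

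The difference between these hypoxia changes, the interaction of oxygen and inhibitor, passed for 0 of 39 genes, with every adjusted p at 1, and for 0% of all genes. At an unadjusted p under 0.05 there were 0 members and 148 of 9879 genes. The interaction term was negative for 15 of 16 glycolysis genes, with a median of -0.32. Without hypoxia with inhibitor 3 it was negative for 10 of 16, with a median of -0.04. Over all genes it was positive for 4887 of 9879 with that library and for 4976 of 9820 without it. For single glycolysis genes the interval typically reached 0.70 log2 units to either side, so smaller effects of the inhibitor on the hypoxia change could not be seen.

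**Figure D5:**
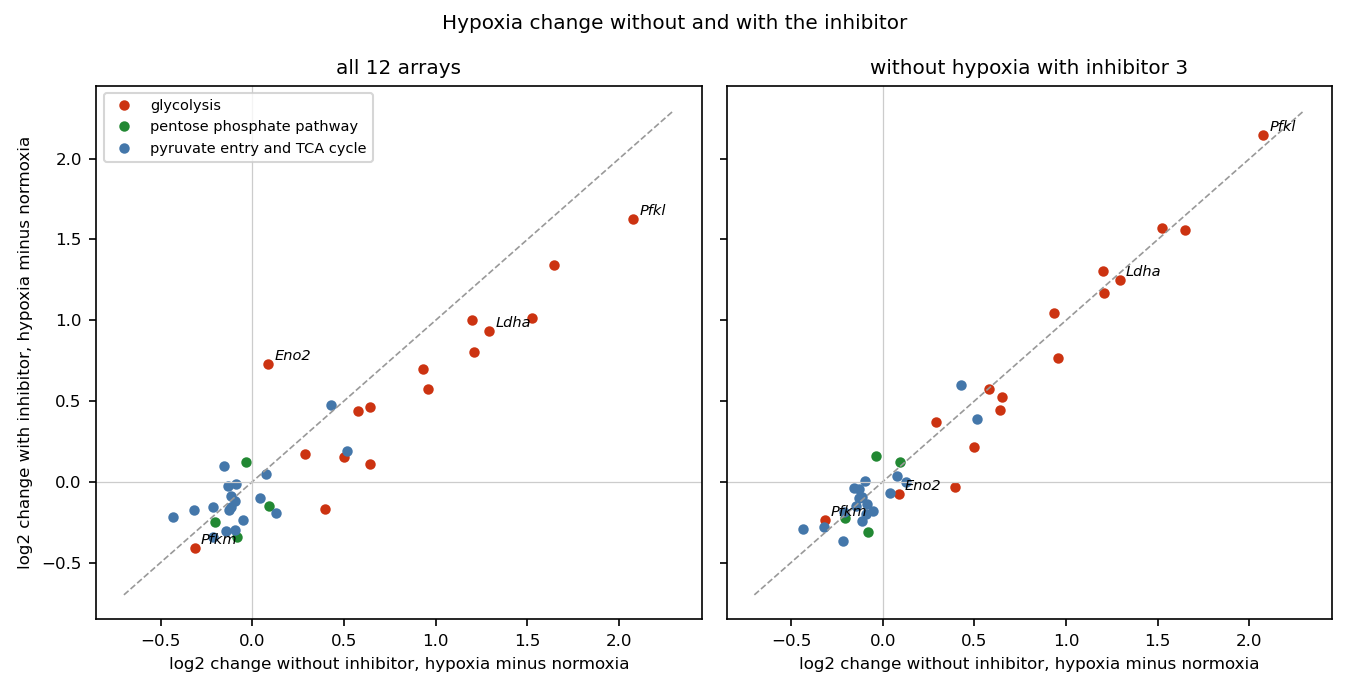
Log2 change of each measured enzyme with hypoxia, without the inhibitor (x axis) and with it (y axis), over all 12 arrays and with hypoxia with inhibitor 3 left out. The dashed line marks equal changes. Pfkl goes from 1.63 to 2.15 and Eno2 from 0.73 to -0.07 on the y axis.

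The inhibitor itself, against none, changed 0 of 39 members in normoxia and 0 in hypoxia, and 0% of all genes in either (limma). At an unadjusted p under 0.05 there were 0 members and 187 genes in normoxia, and 2 members (Pgk1 at -0.55 and Idh2) and 385 genes in hypoxia. In normoxia the glycolysis changes ran from -0.20 to 0.26 with a median of 0.00, the pentose phosphate genes from -0.14 to 0.04, and the pyruvate and TCA branch from -0.15 to 0.18. In hypoxia the glycolysis median was -0.31, with 15 of 16 genes negative, and -0.01 with 9 of 16 negative when hypoxia with inhibitor 3 was left out. Over all genes this change was positive for 4885 of 9879 with that library and for 4928 of 9820 without it.

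Further genes of these pathways were taken from lists beside the 47. Among 12 measured other glycolysis genes 1 rose, Pgm1, a phosphoglucomutase that links glycogen to glucose 6-phosphate. Its signals were 9.41, 9.38 and 9.26 in normoxia, 9.44, 9.59 and 9.59 in normoxia with inhibitor, 10.65, 10.77 and 10.52 in hypoxia, and 10.50, 10.63 and 10.05 in hypoxia with inhibitor. The groups did not overlap across oxygen, and the change was 1.08 averaged over inhibitor (adjusted p = 0.000216), called without the inhibitor (1.30) and with it (0.85) as well.

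Among 5 measured regulators of pyruvate dehydrogenase 1 rose, Pdk1, the kinase that switches the complex off. It had signals of 9.02, 9.21 and 8.47 in normoxia, 9.02, 9.14 and 8.81 in normoxia with inhibitor, 9.84, 9.91 and 9.86 in hypoxia, and 10.27, 10.30 and 8.90 in hypoxia with inhibitor. Only hypoxia with inhibitor 3 overlapped the normoxic arrays. The change of 0.90 (adjusted p = 0.041) lost its call without any 1 of the other 11 arrays (adjusted p from 0.056 to 0.096) and was 1.13 without hypoxia with inhibitor 3 (adjusted p = 0.000773). Pdk3, another of these kinases, changed by 0.13 (adjusted p = 0.42). Pdk4, also a kinase of the family and named here after its values were seen, had a change of -0.62 (-1.03 to -0.22) that did not pass the test (adjusted p = 0.078). It was lower in hypoxia in 6 of 6 numbered pairs, and without the inhibitor the groups did not overlap. Of 3 gluconeogenesis genes, 5 other pentose phosphate genes and 11 other TCA genes, 0 passed the test. With the replicate block 9.48% of all genes were called, 4.86% higher and 4.63% lower, so added calls were common. In these lists 3 more genes passed with it: Pgam2, a muscle phosphoglycerate mutase, at 0.57 (adjusted p = 0.031), Sdhaf1, an assembly factor of succinate dehydrogenase, at -0.28 (adjusted p = 0.021), and Prps2, which makes the ribose donor for nucleotides, at -0.51 (adjusted p = 0.038).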

How the data were processed

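RNA of 12 samples was measured on Illumina mouse bead arrays, 1 array each. The deposited table gives, per the file headers, a linear intensity for each of 25697 probes beside its detection p-value; 23.3% of the intensities were below 0, so background had been subtracted before deposit. The submitters' processing notes name BeadStudio with no version. A second deposited table holds the authors' processed intensity, floored at 20, and served as an alternative.

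Background was corrected with limma 3.58.1 (R 4.3.3) by the normal-exponential model from the deposited detection p-value, with an offset of 16, followed by quantile normalization and log2. Probes detected (p-value under 0.05) on at least 3 of 12 arrays were kept: 14599 probes, 9879 named genes. Gene names came from the platform annotation, which gave 1 symbol for 23978 probes, several for 0 and none for 1719. The brightest kept probe stood for a gene. Each probe was fitted as 4 group means (8 residual degrees of freedom), and limma's moderated two-sided p-values were adjusted by Benjamini-Hochberg over all kept probes. The code was tested on simulated data. Alternatives covered background correction, scaling, the detection filter, the probe rule, the replicate block, array weights and each array left out. Figures used Python 3.11.15 and matplotlib 3.10.9.

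Replicate numbers were taken to pair samples where every same-numbered pair of arrays had residuals correlated over 0.1: 0.30 to 0.58 across oxygen without the inhibitor and 0.11 to 0.25 across oxygen with it. Across inhibitor status they were 0.38 to 0.64 in normoxia and 0.03 to 0.08 in hypoxia. The main fit and the permutation test did not use this pairing. It entered the tests only through the replicate block, which was run as an alternative. What same-numbered cultures had in common is not stated. The limma p-values set each group difference against the spread between samples within groups. The number of arrays limits the precision of all p-values here. Every measured member was reported, with its value on each array where it was called in a comparison or was among the 2 largest positive or 2 largest negative changes of its branch. The members, lists and tests were chosen with earlier results of these data known.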

Additional observations from a re-analysis of the deposited data

How the results depend on the processing

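The counts of called members moved more than the changes did. Without the inhibitor 7 members were called; array weights gave 16 and the arrays numbered 1 and 2 alone 16 (882 and 957 genes in all, against 114), and leaving out 1 array gave 1 to 9 (20 to 254 genes). The replicate block gave 10 (245 genes). With the inhibitor 2 were called, beside 103 genes in all. The count was 4 with a normexp offset of 50 (129 genes), 1 with the deposited signal floored at 16 (77 genes) and 1 with the authors' processed table (86 genes). It was 0 when fitted on the 2 groups alone (25 genes) and 4 with the replicate block (200 genes). Array weights gave 11 (853 genes) and the arrays numbered 1 and 2 gave 13 (1116 genes). Leaving out 1 array gave 1 to 10 (28 to 200 genes). Averaged over inhibitor 11 were called, against 20 with array weights and 17 over the arrays numbered 1 and 2 (2185 and 2082 genes, against 568). With 1 array left out the count there was 8 to 13 (311 to 778 genes). The replicate block, which pairs same-numbered arrays, gave 12 there, Pfkm being added, with 937 genes in all; beside Pfkm and the added calls named in the text it changed no member's call. The cause of these shifts was not tested. In 22 or 23 alternatives each, the inhibitor comparisons and the interaction stayed at 0 members. Averaged over inhibitor, branch medians stayed within 0.64 to 0.79, -0.17 to -0.07 and -0.14 to -0.08, and the isozyme pairs passing stayed at 3 to 5, against 4. Over the replicate block, median scaling, the arrays numbered 1 and 2, and the fit without hypoxia with inhibitor 3, the change turned sign for 3 members averaged over inhibitor (Eno2, Tkt and Mdh1) and for 7 with it, 0 of them called in any of these fits. A slide block was not run, since the headers give no slide. Pfkfb3, Pgk1 and Aldoc, near the detection limit, have the least certain changes.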
